A study of Mus musculus with 24 samples.

Results

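Chemokines are small secreted proteins that guide the movement of leukocytes and are grouped by the spacing of their N-terminal cysteines into CC, CXC, XC and CX3C ligands. Their receptors are G protein-coupled receptors named for the ligand class they bind, and many receptors bind several ligands. In the lung they recruit and position lymphocytes, dendritic cells, monocytes and neutrophils, and the organ passes from birth through alveolarization to adulthood while its resident immune cells settle. The genes described here were all those whose symbol starts with Ccl, Cxcl, Ccr, Cxcr, Xcl, Xcr, Cx3cl or Cx3cr followed by a number. The array carried 55 of them among 19722 named genes, comprising 36 ligands and 19 receptors.

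The lungs came from healthy, untreated C57BL/6 mice at 5 ages, with 5 arrays for each of postnatal days 1, 4, 7 and 14 and 4 arrays for day 42. The groups differ in age alone, and whole lung tissue was used. Total RNA was extracted with the miRNeasy mini kit, labelled with Cy3 and hybridised to 1-colour Agilent arrays, 24 in all on 3 slides that each held every age. The samples are labelled as biological replicates, the number of animals behind each is not given in the sources used here, and p-values measure the spread between these samples. A level is the log2 signal of a gene's probe minus the 75th percentile of log2 signal on that array, so 0 is the signal that 75% of the array's probes lie below. Levels of different probes are not on one scale, and only the same gene is compared across ages. A probe was well above background where the scanning software marked it so. Differences are log2, later age minus earlier age, with the standard error of a limma fit over all 24 arrays, and a gene was called where its Benjamini-Hochberg adjusted p over 15895 tested genes was under 0.05. In whole lung, fewer cells of a type and less RNA per cell cannot be told apart.

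Promoter sequences were shown for 4 members that rose between day 7 and day 14 and again stood higher at day 42 than at day 1, namely the 3 members whose window held an interferon-stimulated response element (ISRE) and Ccl8, the CC ligand with the largest rise. Each window is the 250 bases before the RefSeq transcription start in GRCm38.p6, written 5′ to 3′ on the gene's strand, with motif letters in capitals. The windows lie at chr5:92348890-92349139, minus strand for Cxcl10, at chr13:56296552-56296801, minus strand for Cxcl14, at chr4:42756366-42756615, minus strand for Ccl19 and at chr11:82114935-82115184, plus strand for Ccl8.
Cxcl10: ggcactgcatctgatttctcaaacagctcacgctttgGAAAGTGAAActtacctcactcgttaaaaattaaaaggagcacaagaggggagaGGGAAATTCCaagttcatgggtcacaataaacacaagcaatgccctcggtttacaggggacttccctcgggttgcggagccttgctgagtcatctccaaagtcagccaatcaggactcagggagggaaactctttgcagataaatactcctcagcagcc
Cxcl14: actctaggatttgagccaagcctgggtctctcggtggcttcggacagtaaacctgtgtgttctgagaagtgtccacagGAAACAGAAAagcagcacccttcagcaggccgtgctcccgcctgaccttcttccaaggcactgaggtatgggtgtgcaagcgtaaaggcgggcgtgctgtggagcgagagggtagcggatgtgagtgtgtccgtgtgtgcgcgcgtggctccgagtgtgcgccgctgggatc
Ccl19: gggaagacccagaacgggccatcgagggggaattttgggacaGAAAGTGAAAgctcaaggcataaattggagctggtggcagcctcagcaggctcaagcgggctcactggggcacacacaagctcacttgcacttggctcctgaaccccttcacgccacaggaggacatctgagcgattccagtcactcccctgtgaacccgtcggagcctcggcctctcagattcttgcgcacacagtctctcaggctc
Ccl8: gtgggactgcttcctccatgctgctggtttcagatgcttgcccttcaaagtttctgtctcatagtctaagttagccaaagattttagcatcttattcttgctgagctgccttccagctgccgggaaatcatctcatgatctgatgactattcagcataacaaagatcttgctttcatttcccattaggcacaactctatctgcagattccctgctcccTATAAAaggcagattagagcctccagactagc
The capitals mark the ISRE (the letters GAAA repeated after a gap of any 2 bases) in Cxcl10, Cxcl14 and Ccl19, the kappaB motif (GGGA followed after any 2 bases by TTCC) further downstream in Cxcl10, and the TATA letters TATAAA in Ccl8. Both strands were searched, and the motifs of a window did not overlap in the sequences shown. RefSeq windows were matched for 41 of the 55 members, with 45 windows among them. ISRE letters were in 3 of these 45 windows (6.67%), against 2.98% of all 32851 windows. The kappaB letters were in 6 of the 45 (13.3%), those of Ccl1, Ccr3, Cxcl1, Cxcl2, Cxcl3 and Cxcl10, against 1.21% of all windows, and TATAAA was in 12 (26.7%) against 12.4%. A match describes letters in the window and is no measure of binding.

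Some arrays stood apart before any comparison. On 5 arrays (replicates 4 and 5 of day 1, replicates 1 and 3 of day 4, and replicate 4 of day 42) between 50.4% and 56.0% of spots were well above background, against 57.0% to 79.7% on the other 19 arrays, and 34 to 41 chemokine family members were detected against 39 to 48. The top of that range, 79.7%, was day 14 replicate 3. That array also read -3.03 for the mean level of 7 thymus markers, while the other day 14 arrays read -5.80, -6.13, -6.15 and -5.63. Day 14 replicate 5 had the lowest mean level of the day 14 arrays for B cell markers (-1.58, others -0.32 to -0.04), T cell markers (-0.48, others 0.12 to 0.51) and NK cell markers (-3.51, others -2.40 to -1.86). All 7 lung epithelial and all 5 lung endothelial markers were tested, and the mean level of the epithelial list lay between 5.30 and 7.35 at days 1, 7, 14 and 42. The results below are given with and without the 5 arrays where they differ.

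Most of the family was detectable in newborn lung. Of the 55 members, 31 were well above background on all 24 arrays, and these included 15 of 22 CC ligands, 7 of 12 CXC ligands, 5 of 6 CXC receptors and 2 of 11 CC receptors. Over all named genes 13203 of 19722 were, a larger share than in the family. Counts by age over all named genes are not given here. By age, 33 members were detected on every array at day 1, 34 at day 4, 38 at day 7, 43 at day 14 and 40 at day 42. Without the 5 arrays the counts were 41, 41, 38, 43 and 46. Between 6 and 12 members were on no array of an age. Ccl1, Ccl20, Ccr1, Ccr8 and Cxcl2 were well above background on no array at all, and Ccl22 and Ccl26 on 1 day 14 array each. These 7 were not tested. The receptors Ccr4 and Xcr1 and the ligands Xcl1 and Cxcl3 were detected mainly late. Xcl1, a ligand made by NK and T cells, was detected on 0 of 5 arrays at each of days 1, 4 and 7, on 1 of 5 at day 14 and on 4 of 4 at day 42. Its receptor Xcr1, which marks cross-presenting dendritic cells, was on no array until day 14, then on 2 of 5, and on 3 of 4 at day 42. Ccr4, a receptor of type 2 helper and regulatory T cells, was on 1 array at day 1, none at days 4 and 7, all 5 at day 14 and 3 of 4 at day 42.

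**Figure D1:**
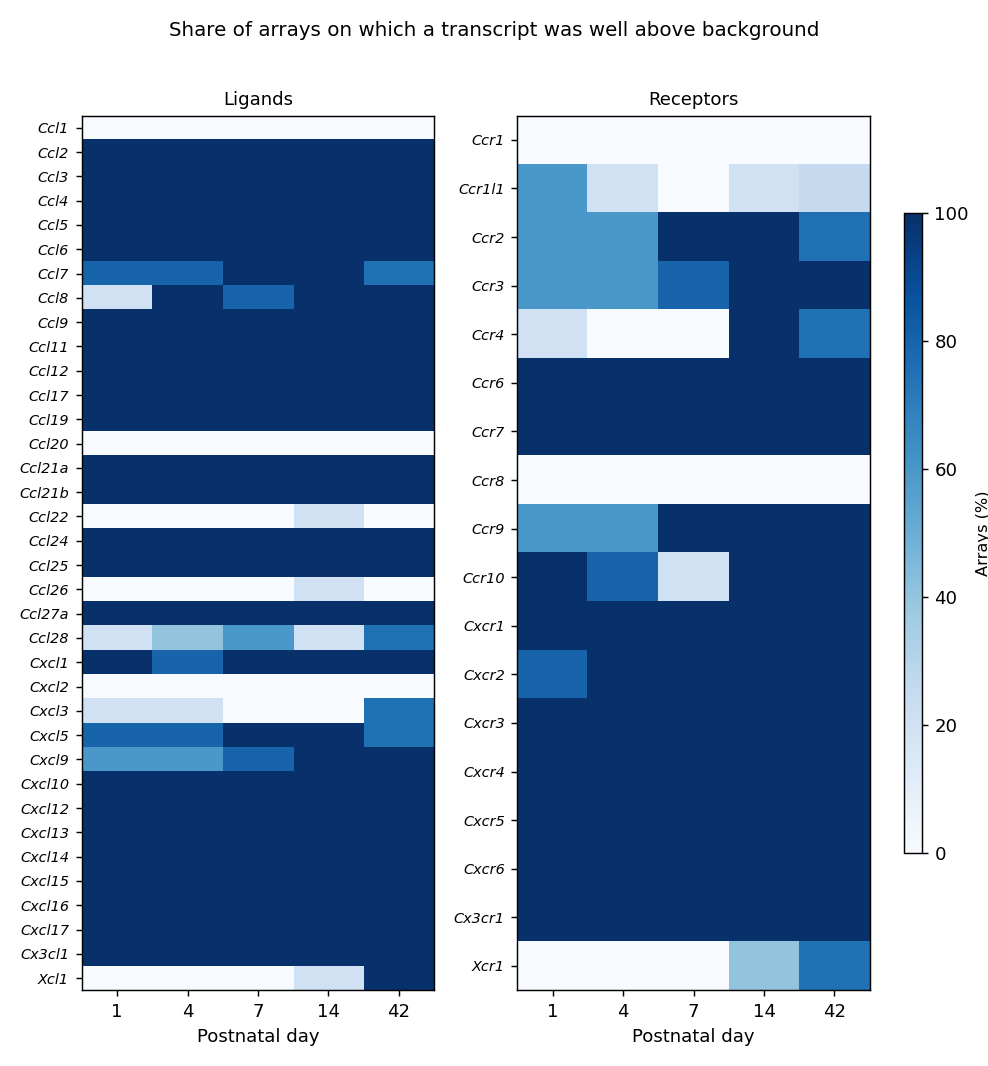
Share of arrays (%) at each postnatal day on which each of the ligands (left) and receptors (right) was well above background. Dark cells are detected on every array, and white cells on none, such as Ccl1, Ccl20, Cxcl2, Ccr1 and Ccr8 at every age.

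Across the 5 ages the family shifted upward. Of the 48 tested members, 29 differed between any of the ages (limma F-test), while 31.8% of all tested genes did. The highest mean was at day 42 for 37 of the 48 (77.1%, against 25.3% of all tested genes), and the lowest was at day 1 for 21 and at day 7 for 17. No member had its lowest mean at day 42, against 20.8% of all tested genes. Xcl1, Xcr1 and Cxcl3 passed the filter for testing (well above background on at least 4 arrays) only with their day 42 arrays. Of the 29 members, 9 were CC ligands, 7 CXC ligands, 2 XC or CX3C ligands, 7 CC receptors and 4 CXC receptors. Without the 5 arrays 35 members differed, with 53.9% of all tested genes.

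**Figure D2:**
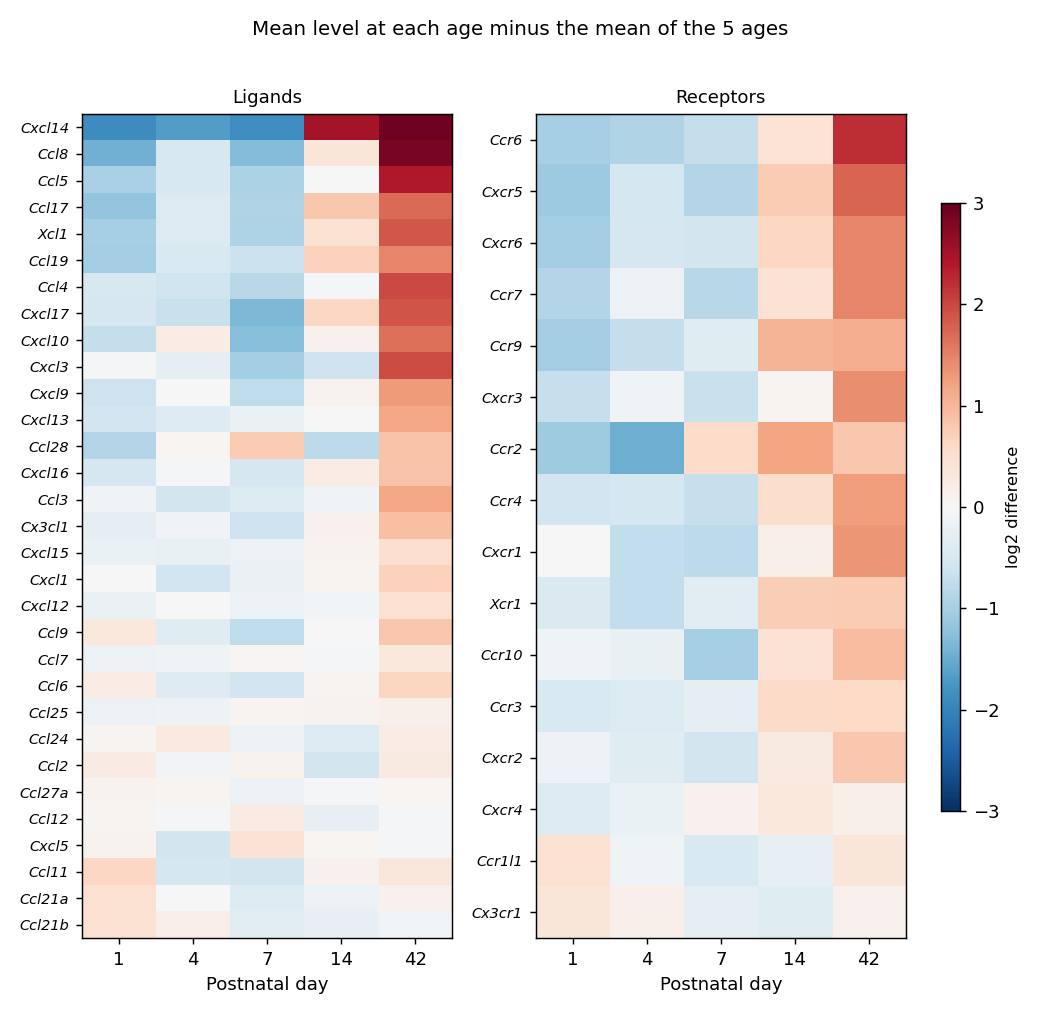
Mean log2 level of each tested ligand (left) and receptor (right) at each postnatal day minus its mean over the 5 ages, ordered by the day 42 minus day 1 difference. Colours turn red at days 14 and 42 for Cxcl14 and Cxcr5 and at day 42 for Ccl8, Ccl5 and Ccr6, and stay near white for Ccl27a and Ccl12.

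No member was called in the first postnatal week. From day 1 to day 4 none of the 48 passed, and 0.0377% of all tested genes were called higher and 0.0189% lower. At an unadjusted limma p under 0.05 there were 8 of the 48 members and 819 of the 15895 tested genes. Differences ranged from -1.15 to 0.97. The member with the lowest unadjusted p was Ccl11, an eosinophil chemokine known as eotaxin, at -1.15 ± 0.33 (SE), with a limma adjusted p of 0.329. From day 4 to day 7 none passed either, and 0% of all genes were higher and 0.00629% lower. Here 3 members and 1337 of the 15895 tested genes had an unadjusted limma p under 0.05. The median of all tested genes itself was -0.23 in this step, so the members' median of -0.19 lay close to it. Cxcl10, an interferon-induced ligand of Cxcr3, had a difference of -1.51 ± 0.37 with a limma adjusted p of 0.218, and its 5 day 7 arrays (-3.89 to -3.21) all lay below its day 4 arrays (-2.85 to -1.16).

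Between day 7 and day 14, 15 of the 48 members were called higher and none lower, against 6.03% of all tested genes higher and 5.56% lower. The median difference of the members was 0.74, beside 0.02 for all tested genes. With arrays scaled to their median in place of the 75th percentile, 433 of all genes were higher and 878 lower (958 and 884 in the first scaling), the median of all genes was -0.15, and 10 members were higher and none lower. The 15 were 4 CC ligands (Ccl8, Ccl9, Ccl17, Ccl19), 3 CXC ligands (Cxcl10, Cxcl14, Cxcl17), Xcl1, 5 CC receptors (Ccr4, Ccr6, Ccr7, Ccr9, Ccr10) and 2 CXC receptors (Cxcr5, Cxcr6). In 10 of the 15 the arrays of the compared ages did not overlap, and no such count over all tested genes is given here. Without the 5 arrays 27 members were higher and 1, Ccl12, was lower, and 20.4% of all tested genes were higher. All 15 calls remained, and those added as higher included Ccl4, Ccl5, Ccl6, Ccl11, Ccr2, Ccr3, Cx3cl1, Cxcl16, Cxcr1, Cxcr2 and Cxcr3. Leaving out day 7 replicate 2 alone left 9 calls.

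From day 14 to day 42, 8 members were called higher and none lower, against 2.19% and 1.51% of all tested genes. The median of the members was 0.63, beside 0.07 for all tested genes. With median scaling 371 of all genes were higher and 109 lower (348 and 240 in the first scaling), the median of all genes was 0.28, and again 8 members were higher and none lower. These were 5 CC ligands (Ccl3, Ccl4, Ccl5, Ccl8, Ccl19), Cxcl3, Cxcl10 and the receptor Ccr6. Ccl8, Ccl19, Cxcl10 and Ccr6 were called in both steps, while Ccl3, Ccl4, Ccl5 and Cxcl3 were called in the later step alone. Among these, Cxcl3 passed the filter for testing only with its day 42 arrays. Without the 5 arrays 16 members were called, with 6.77% of all tested genes higher. The call on Cxcl10 was lost (limma adjusted p = 0.0531), and those added included Ccl2, Ccl9, Ccr2, Cxcl15, Cxcl16, Cxcr1, Cxcr3 and Cxcr6.

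Over the whole interval from day 1 to day 42, 26 members were called higher and none lower, against 13.1% of all tested genes higher and 13.7% lower. Xcl1 and Cxcl3 among them passed the filter for testing only with their day 42 arrays. The median difference of the members was 1.29, beside -0.06 for all tested genes. In 19 of the 26 the day 42 arrays all lay above the day 1 arrays. No such count over all tested genes is given here, so it does not describe the family beyond the calls. The 26 comprised 6 of 18 tested CC ligands, 7 of 11 CXC ligands, both tested XC and CX3C ligands, 7 of 9 CC receptors and 4 of 6 CXC receptors, and neither Xcr1 nor Cx3cr1. The other 22 tested members had differences from -0.55 to 1.88. Without the 5 arrays 33 members were called and 22.7% of all tested genes were higher, with all 26 calls kept and Ccl6, Ccl9, Ccr2, Cxcl1, Cxcl12, Cxcr4 and Xcr1 added. The 21 tested members called in none of these comparisons were Ccl2, Ccl6, Ccl7, Ccl11, Ccl12, Ccl21a, Ccl21b, Ccl24, Ccl25, Ccl27a, Ccl28, Cxcl1, Cxcl5, Cxcl12, Cxcl13, Ccr1l1, Ccr2, Cxcr2, Cxcr4, Xcr1 and Cx3cr1.

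**Figure D3:**
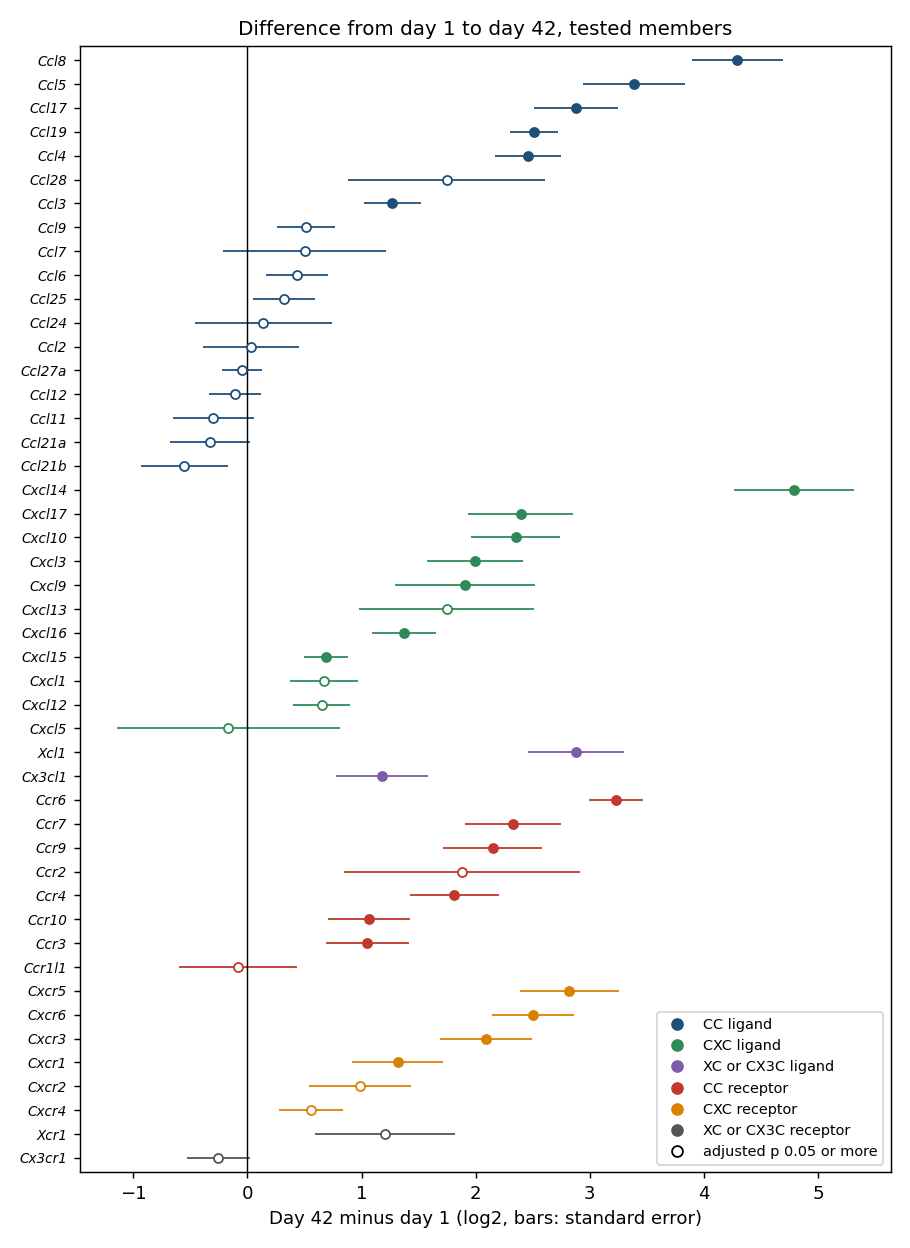
Day 42 minus day 1 difference (log2) of the tested members, grouped by ligand or receptor class, with standard errors from limma as bars. Filled points are called members, all to the right of 0, led by Cxcl14 at 4.79 and Ccl8 at 4.29.

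Among CC ligands, Ccl8, also known as MCP-2, climbed in both steps. Its levels were -6.03, -6.02, -5.04, -5.27 and -4.81 at day 1, where 1 of 5 arrays was well above background, and -4.76, -4.44, -3.99, -4.19 and -4.92 at day 4. They were -5.49, -5.83, -5.02, -5.54 and -4.51 at day 7, -4.13, -3.86, -3.65, -4.17 and -2.29 at day 14, and -0.07, -0.91, -1.79 and -1.79 at day 42. Every day 14 array was above every day 7 array, and every day 42 array was above every day 14 array. The rise was 1.66 ± 0.38 from day 7 to day 14 (3.16-fold, limma adjusted p = 0.00449) and 2.48 ± 0.40 from day 14 to day 42 (5.58-fold, adjusted p = 0.00069). Over the whole interval the difference was 4.29 ± 0.40 (limma adjusted p = 4.44e-08), and no fold is given because 4 of the 5 day 1 arrays were not well above background. It was 5.58, 4.06 and 3.26 on the 3 slides. With normexp background correction the day 1 to day 42 rise was 2.17 (adjusted p = 9.05e-06), and the day 7 to day 14 difference, 0.79, was not called (limma adjusted p = 0.0914).

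Ccl8 stood apart from its neighbours on the chromosome. In RefSeq's gene order Ccl2, Ccl7, Ccl11, Ccl12, Ccl8 and Ccl1 follow one another, and Ccl8 was the 1 of the 5 tested that was called from day 1 to day 42. The others had differences between -0.30 for Ccl11 and 0.50 for Ccl7, with standard errors of 0.35 and 0.72. Ccl2, the main ligand of Ccr2 on inflammatory monocytes, had a difference of 0.03 ± 0.42, and Ccl12 of -0.11 ± 0.23. In another run of neighbours, Ccl5, Ccl9, Ccl6, Ccl3 and Ccl4, 3 of 5 were called (Ccl3, Ccl4 and Ccl5), with differences from 0.43 to 3.38.

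Ccl5, made by T and NK cells and known as RANTES, was detected on all 24 arrays and rose late. It read 1.14, 0.00, 0.61, 1.81 and 2.19 at day 1, 1.42, 0.97, 1.07, 1.29 and 1.14 at day 7, and 2.12, 2.75, 2.28, 2.49 and 1.07 at day 14. At day 42 it read 3.67, 3.98, 4.39 and 6.10, above every earlier array. The lowest day 14 value came from replicate 5 and the highest day 42 value from replicate 4. The rise from day 14 to day 42 was 2.39 ± 0.45 (5.25-fold, limma adjusted p = 0.00294), and from day 1 to day 42 it was 3.38 ± 0.45 (10.4-fold, adjusted p = 4.37e-06). Within slides the day 1 to day 42 difference was 2.19, 3.09 and 5.49, the last being between single arrays.

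Ccl4 and Ccl3, macrophage inflammatory proteins, also rose from day 14 to day 42. Ccl4 read -2.60, -2.61, -2.87, -2.53 and -2.79 at day 14 and -0.74, -0.71, -1.15 and 0.01 at day 42. The day 42 arrays were all above the day 14 arrays, by 2.03 ± 0.29 on average (4.09-fold, limma adjusted p = 0.000184). Ccl3 rose by 1.28 ± 0.25 in the same step (2.42-fold, limma adjusted p = 0.00415).

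Ccl17, a dendritic cell product that attracts Ccr4-bearing T cells, rose earlier. Its day 7 levels were -2.68, -2.68, -2.57, -2.29 and -1.43, and its day 14 levels were -1.11, -0.71, -0.58, -0.75 and 0.12. At day 42 they were -0.62, 0.53, 0.18 and 1.01, overlapping day 14, while at day 1 they were between -3.34 and -1.80. The ages 7 and 14 did not overlap, and the difference was 1.73 ± 0.35 (3.31-fold, limma adjusted p = 0.0017). Day 42 exceeded day 1 by 2.88 ± 0.37 for Ccl17 (7.36-fold, limma adjusted p = 3.1e-06). Ccl22, the other ligand of Ccr4, was well above background on 1 array. In gene order Cx3cl1 lies between Ccl22 and Ccl17 and was also called from day 1 to day 42, at 1.18 ± 0.40 (limma adjusted p = 0.0322), although its day 1 and day 42 arrays overlapped.

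Ccr4, the receptor of Ccl17, and the ligand Xcl1 had to be read against the detection limit. Ccr4 was well above background on no day 7 array and all 5 day 14 arrays, so its change was a bound. The day 14 levels of -5.52, -5.38, -5.03, -5.01 and -5.43 were at least 1.36-fold higher than the detection limit of the day 7 arrays (limma adjusted p = 0.0319 for the measured values). Bounds compare the mean of the bright age with, on each array of the dim age, the higher of the lowest signal well above background and the probe's own signal. Xcl1 at day 42 (-4.37, -4.59, -4.11 and -3.80) was at least 2.28-fold higher than at day 1 (limma adjusted p = 1.73e-05). Xcl1 met the filter for testing (well above background on at least 4 arrays) only with its day 42 arrays. This p-value thus follows a choice that favours high day 42 signal. The Xcl1 call from day 7 to day 14 (limma adjusted p = 0.0237) rested on probes well above background on no day 7 array and 1 of 5 day 14 arrays, and no fold is given. Without day 14 replicate 3, which read -4.13 while the others read -6.32 to -5.75, the step from day 7 to day 14 was not called for Xcl1 (limma adjusted p = 0.0872). With normexp correction neither the Ccr4 step (adjusted p = 0.243) nor the Xcl1 rise to day 42 (limma adjusted p = 0.242) was called. Xcr1 had a day 1 to day 42 difference of 1.20 ± 0.62 (limma adjusted p = 0.165), and of 2.33 ± 0.66 without the 5 arrays (adjusted p = 0.00822). Xcr1 too passed the filter only with its day 42 arrays.

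Cxcl14, a ligand of epithelium and stroma with no agreed receptor, showed the largest difference of the family, in 1 step. Day 1 levels were -0.16, -0.96, -0.78, 0.89 and 0.40, day 4 levels 0.92, -0.47, 0.58, -0.31 and -0.32, and day 7 levels -0.02, -0.27, -0.38, 0.20 and -0.03. At day 14 the arrays read 4.78, 4.95, 4.86, 4.82 and 1.89, and at day 42 they read 4.16, 4.43, 4.28 and 5.80. All arrays of days 14 and 42 were above all arrays of days 1, 4 and 7, and replicate 5 of day 14 was far below its group. The rise from day 7 to day 14 was 4.36 ± 0.50 (20.5-fold, limma adjusted p = 1.24e-05), with 4.80, 5.15 and 3.47 on the 3 slides. Without day 14 replicate 5 it was 4.95 ± 0.37 for Cxcl14 (limma adjusted p = 3.08e-09). Day 42 minus day 1 was 4.79 ± 0.53 (27.6-fold, limma adjusted p = 3.69e-07).

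Cxcl17, a mucosal ligand of airway epithelium, rose in the same step with a wider spread. It read -0.67, -1.77, -0.86, -2.67 and 0.35 at day 7 and 1.39, 0.66, 1.01, -0.12 and 1.33 at day 14. The groups overlapped through the highest day 7 array, and the difference was 1.98 ± 0.43 (3.95-fold, limma adjusted p = 0.00333). At day 42 all 4 arrays (1.73 to 2.51) were above all day 14 arrays. Of the 7 epithelial markers, 3 were called higher from day 7 to day 14, Scgb1a1 of club cells and Hopx and Sftpa1 of alveolar epithelium, and 4 were not called. Their part in the rises of Cxcl14 and Cxcl17 was not tested. Cxcl15, a ligand made by lung epithelium and known as lungkine, was detected on all 24 arrays and called from day 1 to day 42 at 0.69 ± 0.19 (1.61-fold, limma adjusted p = 0.00862), with a difference of -0.09 on 1 of the 3 slides.

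Of the interferon-induced ligands of Cxcr3, Cxcl10 was called in both later steps. Its day 7 arrays read -3.56, -3.21, -3.47, -3.89 and -3.51, its day 14 arrays -2.60, -2.19, -0.78, -2.50 and -2.50, and its day 42 arrays -0.08, -0.80, -1.50 and -0.01. Day 14 was above day 7 on every array, and day 42 overlapped day 14 through replicate 3 of day 14. The difference was 1.41 ± 0.37 (2.66-fold, limma adjusted p = 0.0122) from day 7 to day 14 and 1.52 ± 0.39 (2.86-fold, adjusted p = 0.0288) from day 14 to day 42. The later call ended in 7 of the 24 leave-one-out fits. Cxcl9, its close relative, read -0.87 on replicate 1 of day 42 and between -4.23 and -3.19 on the others. It was called from day 1 to day 42 at 1.91 ± 0.62 (limma adjusted p = 0.0237), and neither without that array (1.22 ± 0.57, adjusted p = 0.144) nor with the replicate number as a block (limma adjusted p = 0.0545). Their receptor Cxcr3, carried by activated T and NK cells, rose by 2.09 ± 0.40 from day 1 to day 42 (4.26-fold, limma adjusted p = 0.000364).

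Of Cxcl1, Cxcl2, Cxcl3 and Cxcl5, ligands of the neutrophil receptor Cxcr2, Cxcl3 was the 1 called over all arrays. It was well above background on no day 14 array and 3 of 4 day 42 arrays (-3.62, -4.19, -4.94 and -4.49), at least 2.75-fold higher at day 42 (limma adjusted p = 0.000758), and was not called with normexp correction (adjusted p = 0.372). Cxcl3 also passed the filter for testing only with its day 42 arrays. Cxcl2 was well above background on no array. Cxcl1 had a day 1 to day 42 difference of 0.67 ± 0.30 (limma adjusted p = 0.107), and 0.97 ± 0.34 without the 5 arrays (adjusted p = 0.0285). Cxcl5 read -0.17 ± 0.98 with a limma adjusted p of 0.918, so its interval spans changes in both directions. Cxcr2 itself was at 0.99 ± 0.45 (limma adjusted p = 0.113). Cxcr1, its neighbour in gene order, was called higher over the same ages, at 1.32, and was well above background on all 24 arrays. Of 7 neutrophil markers, 1 was called higher and 2, Camp and Ngp, lower over the same ages.

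**Figure D4:**
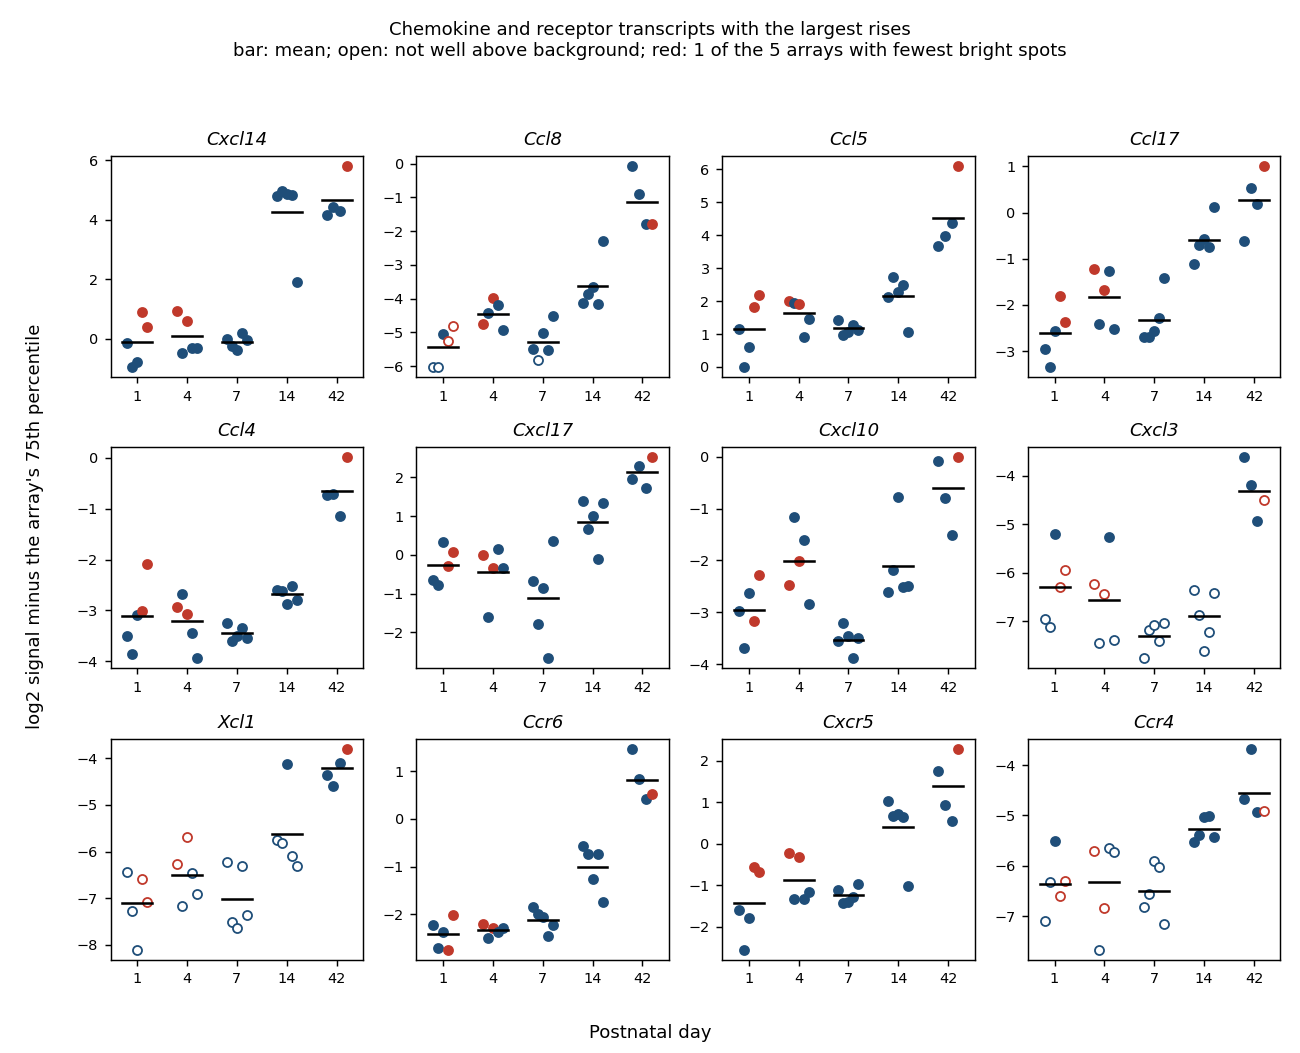
Level (log2 signal minus the array's 75th percentile) of 12 members on each of the 24 arrays by postnatal day, with the mean as a bar, open points for arrays not well above background and red points for the 5 arrays with the fewest bright spots. Cxcl14 steps up at day 14, with 1 array at 1.89, while Ccl5, Ccl4 and Cxcl3 are highest on the 4 day 42 arrays.

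Several receptors of lymphocytes rose. Ccr6, found on B cells and on T cells that make interleukin 17, was called in both later steps. It read -2.23, -2.71, -2.38, -2.74 and -2.02 at day 1, -1.85, -2.00, -2.06, -2.46 and -2.23 at day 7, and -0.58, -0.73, -1.25, -0.74 and -1.74 at day 14. At day 42 it read 1.47, 0.84, 0.41 and 0.53, so that days 7, 14 and 42 did not overlap. The rise was 1.11 ± 0.22 from day 7 to day 14 (2.16-fold, limma adjusted p = 0.00158), and 1.82 ± 0.24 from day 14 to day 42 (3.54-fold, adjusted p = 6.35e-05). Over the whole interval it was 3.23 ± 0.24 (9.39-fold, limma adjusted p = 2.37e-09), with 3.96, 2.99 and 2.91 on the 3 slides. Its ligand Ccl20 was well above background on no array.

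Cxcr5, the receptor that brings B cells and follicular helper T cells into follicles, rose from day 7 (-1.12, -1.42, -1.40, -1.27 and -0.97) to day 14 (1.04, 0.67, 0.71, 0.65 and -1.02). The day 14 arrays other than replicate 5 were all above day 7. The difference was 1.65 ± 0.41 (3.13-fold, limma adjusted p = 0.00842), and 2.00 ± 0.37 for Cxcr5 without day 14 replicate 5 (adjusted p = 0.00053). Day 42 exceeded day 1 by 2.82 ± 0.43 (7.07-fold, limma adjusted p = 2.66e-05). Its ligand Cxcl13 was detected on all arrays and read 2.82, -1.76, -3.37 and -3.54 at day 42, against -3.54 to -1.95 on the other 20. The day 1 to day 42 difference of Cxcl13 was 1.75 ± 0.77 (limma adjusted p = 0.101), and 0.32 ± 0.33 without day 42 replicate 1 (adjusted p = 0.591). That array also had the highest mean level at day 42 of B cell markers (0.76, others -0.28 to -0.04), adipocyte markers (3.33, others -1.92 to 0.17), mesothelial markers (2.70, others 1.42 to 2.05) and interstitial macrophage markers (1.93, others 0.81 to 1.45). The part of these cells in the Cxcl13 and Cxcl9 values was not tested.

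Ccr7, which guides naive T cells and mature dendritic cells to lymphoid tissue, rose together with 1 of its ligands. Ccr7 was at 0.13 to 2.31 at day 1 and at 3.59, 3.57, 2.73 and 4.32 at day 42, without overlap, a rise of 2.33 ± 0.42 (5.03-fold, limma adjusted p = 0.000196). Ccl19 was called in both later steps and rose by 2.51 ± 0.21 from day 1 to day 42 (5.69-fold, limma adjusted p = 1.17e-08). The size of the Ccl19 rise depended on the probe, with 4.71, 1.85 and 2.51 for its 3 probes, the last being the brightest and the one used. Ccl21a, the other Ccr7 ligand and the next gene in order, had a difference of -0.33 ± 0.35 (limma adjusted p = 0.54). Signals of near-identical copies cannot be separated on an array, so Ccl21a, Ccl21b, Ccl19 and Ccl27a are uncertain as to the copy measured. Of 5 tested markers of lymphatic endothelium, a cell type that makes Ccl21, none was called from day 1 to day 42.

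The monocyte receptor Ccr2 was split by the arrays that stood apart. It was not well above background on any of these 5 arrays, where it read -5.29, -5.29, -6.10, -6.02 and -4.77, and was between -2.46 and -0.03 on the other 19. Its day 1 to day 42 difference was 1.88 ± 1.03 (limma adjusted p = 0.201), and 1.64 ± 0.28 without the 5 arrays (adjusted p = 0.000145). Cxcr3 and Ccr7 read higher on the 5 arrays than on the rest of their age.

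Of the remaining receptors, Cxcr6, found on effector and resident T cells, rose by 2.50 ± 0.36 from day 1 to day 42 (5.66-fold, limma adjusted p = 1.3e-05), and its ligand Cxcl16 by 1.37 ± 0.28 (2.58-fold, adjusted p = 0.000659). Ccr9, the receptor of thymocytes and gut-homing T cells, was called from day 7 to day 14 at 1.38 ± 0.41 (limma adjusted p = 0.0284). Day 14 replicate 3, the array with the highest mean level of thymus markers, read -1.56 for Ccr9 and the others -3.94 to -2.95, and without it the Ccr9 difference was 1.01 ± 0.37 (limma adjusted p = 0.105). Ccr9 was also called higher from day 1 (-6.27 to -4.31) to day 42 (-4.03 to -2.28), ages that do not include that array. At day 1 it was well above background on 3 of 5 arrays. Its ligand Ccl25 had a day 1 to day 42 difference of 0.32 ± 0.27 (limma adjusted p = 0.43). Ccr10, a receptor of skin-homing T cells and plasma cells, was well above background on 1 of 5 day 7 and 5 of 5 day 14 arrays. It was called from day 7 to day 14 at 1.43 ± 0.34 (limma adjusted p = 0.00561), and not with normexp correction (adjusted p = 0.258). Cxcr4 and its ligand Cxcl12, which retain stem and progenitor cells in their niches, had day 1 to day 42 differences of 0.56 ± 0.28 and 0.65 ± 0.25 (limma adjusted p = 0.156 and 0.0558). Without the 5 arrays both were called, at 0.79 ± 0.22 and 0.69 ± 0.17 (limma adjusted p = 0.0066 and 0.00389). Cxcl12 has 2 probes on different transcripts, and its rise depended on the probe. From day 1 to day 42 the difference was 0.65 for the probe used and 0.10 for the other. From day 7 to day 14 it was 0.10 for the probe used and -0.61 for the other. Cx3cr1, the fractalkine receptor of patrolling monocytes, was at -0.25 ± 0.27 (limma adjusted p = 0.547) while its ligand Cx3cl1 was called higher.

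**Figure D5:**
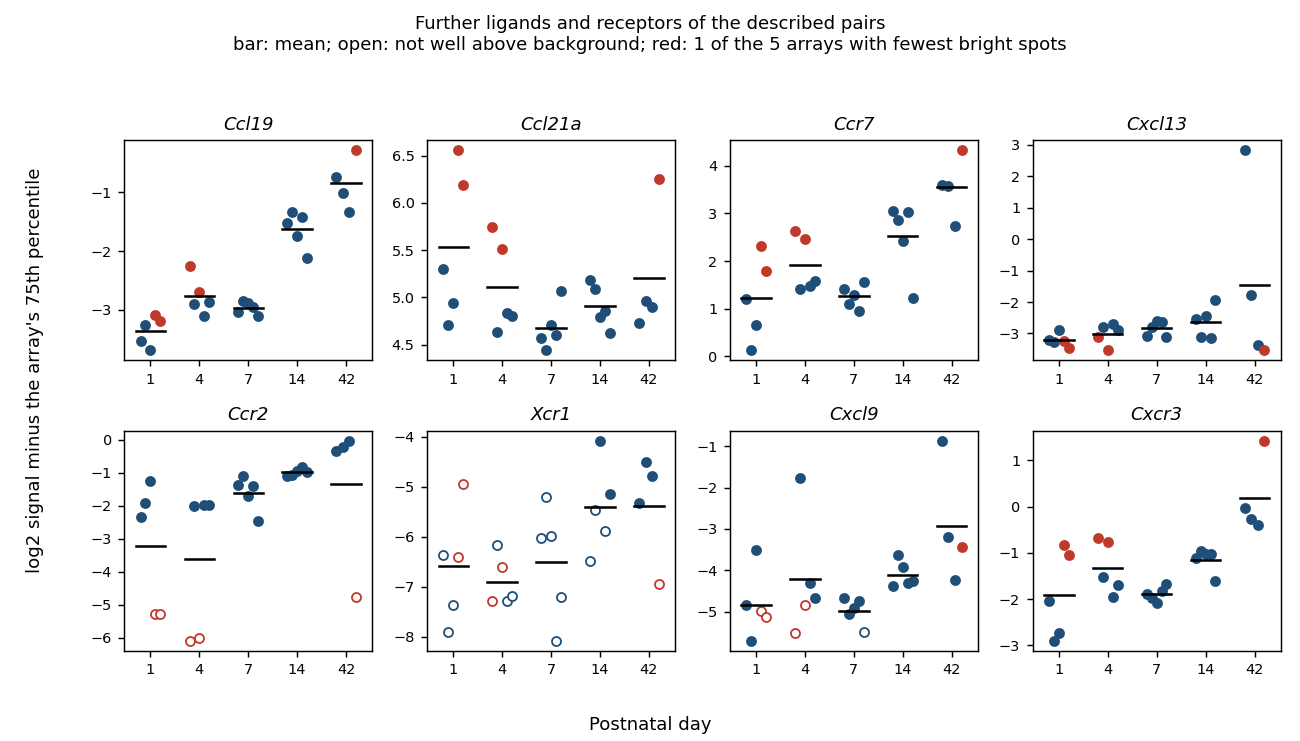
Level (log2 signal minus the array's 75th percentile) of 8 further ligands and receptors on each array by postnatal day, drawn as in the plot of the largest rises. Ccr2 is open and near the bottom on the 5 red arrays, and Cxcl13 is at 2.82 on 1 day 42 array with the others at -3.54 to -1.76.

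There were 4 members that differed between ages without a day 1 to day 42 call, namely Ccl6, Ccl9, Ccl11 and Cxcl1 (limma F-test, adjusted p = 0.00617, 0.000273, 0.0215 and 0.0259). Of these, Ccl6, Ccl9 and Cxcl1 were called higher over that interval without the 5 arrays, and Ccl11 was not. Ccl6, a macrophage ligand, ranged from 3.49 to 5.34 at day 1, from 3.20 to 4.22 at day 7 and from 4.53 to 5.16 at day 42. Ccl9 was called higher from day 7 to day 14 at 0.79 ± 0.24 (1.73-fold, limma adjusted p = 0.033), with overlap of the groups. Ccl11 read -2.80 to -1.36 at day 1, -3.77 to -2.14 at day 4 and -3.32 to -2.66 at day 7. It read -2.56 to -2.27 at day 14 and -3.51 to -1.32 at day 42. Its means at the 5 ages were -1.95, -3.11, -3.14, -2.45 and -2.25, so days 4 and 7 lay lowest, and the day 42 arrays spread widely.

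Markers of leukocytes moved with these members. From day 1 to day 42, 7 of 8 tested T cell markers, 5 of 6 NK cell markers, 7 of 7 B cell markers, 5 of 5 dendritic cell markers and 5 of 7 alveolar macrophage markers were called higher and none lower, with median differences of 2.14, 3.59, 2.37, 2.74 and 1.22. The mean level of the T cell list ranged from -1.83 to -0.32 at day 1 and from 0.55 to 1.74 at day 42, and that of the NK cell list from -5.03 to -3.53 and from -0.79 to -0.11. For B cells the ranges were -2.62 to -2.13 and -0.28 to 0.76, and for dendritic cells -3.66 to -2.94 and -1.07 to -0.04. Alveolar macrophage markers ranged from 1.19 to 1.94 at day 1 and from 3.20 to 3.39 at day 42. Every marker of these lists on the array was well above background on at least 1 array. From day 7 to day 14 4 T cell, 2 NK cell, 5 B cell and 3 dendritic cell markers were called higher, and from day 14 to day 42 4 NK cell, 1 B cell and 2 dendritic cell markers. Basophil and mast cell markers went the other way, with 5 of 6 lower and 1 higher from day 1 to day 42. Of the other lists over these ages, 1 of 4 monocyte markers, 2 of 6 interstitial macrophage markers, 2 of 7 epithelial markers, 1 of 5 endothelial markers and 3 of 3 adipocyte markers were called higher and none lower, the last with a median of 7.19. Called lower were 4 of 5 erythroid markers (median -2.06), 1 of 3 mesothelial markers and 1 of 4 thymus markers, with none higher, and no heart marker of 4 was called. The part of these cells in the chemokine and receptor differences was not tested.

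Other genes of chemokine signalling were called in both directions. Of 50 tested genes of the pathway, 14 were called higher and 3 lower from day 1 to day 42, 5 higher and 2 lower from day 7 to day 14, and 2 higher from day 14 to day 42, with none in the first week. Over all tested genes 13.1% were higher and 13.7% lower from day 1 to day 42, 6.03% and 5.56% from day 7 to day 14, and 2.19% higher from day 14 to day 42. The median of the 50 from day 1 to day 42 was 0.25. Rgs1, which shortens chemokine receptor signals in lymphocytes, rose by 3.09 ± 0.95 (limma adjusted p = 0.018), and Dock2, which couples the receptors to leukocyte movement, rose by 2.04 ± 0.19 (adjusted p = 3.4e-08). Dock2 was also called in both later steps, at 0.85 ± 0.18 and 1.10 ± 0.19. Ackr4, a scavenger receptor for Ccl19, Ccl21 and Ccl25, rose by 1.82 ± 0.29 (limma adjusted p = 3.84e-05), and 3 of the 7 atypical receptors and relatives were called in all. Pik3r5, the regulatory subunit of a phosphoinositide kinase downstream of these receptors, rose by 1.44 ± 0.24 (limma adjusted p = 7.9e-05). Rgs16 fell from day 7 to day 14 by 2.78 on the log2 scale (SE 0.43, limma adjusted p = 0.000138).

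Every age was on every slide, so slide could be separated from age. With slide as a block, 15, 7 and 25 members were called from day 7 to day 14, day 14 to day 42 and day 1 to day 42, and 26 differed between any ages. Of the 49 called differences, 48 had the same sign within each of the 3 slides, the exception being Cxcl15. With the slide block the calls on Ccl19 from day 14 to day 42 (limma adjusted p = 0.0558) and on Ccr3 from day 1 to day 42 (adjusted p = 0.0545) were lost. The Ccr3 call was lost with the replicate number as a block too (limma adjusted p = 0.0658).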

How the data were processed

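The deposited scanner files hold 1 array each, with processed spot signals as intensity, deposited after the background subtraction of version 10.7.3.1 of Agilent's Feature Extraction software by the headers, while the submitters' processing notes give 10.7.1.1. The authors' deposited table of log2 values, with column medians of 5.66 to 6.26 and correlations of 0.986 to 1.00 with the log2 processed signal of the same array, served as an alternative. Its normalization between arrays is not given in the sources used here. Control spots and spots marked non-uniform were dropped, replicate spots were averaged per probe, and log2 processed signal was scaled by each array's 75th percentile. Accessions were matched to RefSeq symbols (GRCm38.p6) for 26056 of 32335 probes that carry one, and a gene took its probe of highest mean level. The arrays' headers name mm9, so no gene coordinates were carried over. Genes well above background on at least 4 arrays were fitted with limma 3.58.1 (R 4.3.3) over all 24 arrays, after a test on simulated data. Signal over background and the number of arrays limit precision, with the 75th percentile of intensity at 475.9 to 1652 per array. One sample's labels disagree on its replicate number and the title was followed. Although the title of the series speaks of fetal lungs, every sample is postnatal. Full values were given to called members, at most the 5 largest rises and falls of a comparison, with the receptors or ligands of their pairs. The members, the marker lists, the pathway list and the arrays left out were chosen with earlier results of these data known. Alternatives covered background correction, scaling, the deposited table, the filter, probe averaging, slide and replicate blocks, the ages fitted and left-out arrays. Replicate numbers, taken from the titles, recur at each age. Deviations from the age means correlated above 0.1 in all 4 same-numbered pairs of days 1 and 42 (0.377 to 0.879). The highest, 0.879, was between replicate 4 of each age, both among the 5 arrays that stood apart. No other pair of ages correlated above 0.1 in every same-numbered pair. The main fit was unpaired for every comparison, and the calls from day 1 to day 42 lost with the replicate block are given. One member is counted but not reported by name here.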

Additional observations from a re-analysis of the deposited data

Results flagged for a closer look

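For 12 of the members described with all their values, the 60 groups of an age were searched for an array far from the rest, and 7 groups held one by Dixon's test, whose threshold of 0.05 lets chance mark about 3 of 60. Day 14 replicate 5 gave 3 of the 7. It read 1.89 for Cxcl14 where the other day 14 arrays read 4.78 to 4.95, -1.02 for Cxcr5 where they read 0.65 to 1.04, and -2.29 for Ccl8 where they read -4.17 to -3.65. Day 14 replicate 3, the array with the largest share of bright spots, read -0.78 for Cxcl10 (others -2.60 to -2.19) and -4.13 for Xcl1 (others -6.32 to -5.75). Day 42 replicate 4, an array with few bright spots, read 5.80 for Cxcl14 against 4.16 to 4.43. Day 4 replicate 2 read -1.60 for Cxcl17 against -0.35 to 0.16.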

How the results depend on the processing

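No called difference of the 49 changed sign under any alternative run. Of them, 36 stayed called in each of the 24 fits that leave out 1 array. The calls lost were 14 under normexp background correction, 10 under median scaling, 9 with only the compared ages fitted, 6 with the replicate block, 3 with the authors' table, and 2 each with quantile normalization, no filter and the slide block. From day 7 to day 14 the count of 15 (1842 of all tested genes) became 31 (4944) with only those ages fitted, 28 (6139) without the 5 arrays and 28 (7109) without these and day 14 replicate 5, and it ran from 9 to 18 when 1 array was left out. From day 14 to day 42 the count of 8 (588 of all genes) became 13 (1525) with the authors' table, 5 (206) with only those ages fitted, 16 (2150) without the 5 arrays and 15 (2264) without the 6 arrays, with 6 to 9 when 1 array was left out. From day 1 to day 42 the count of 26 (4259 of all genes) became 19 (3919) with normexp correction, 20 (2178) with only those ages fitted and 22 (3309) with median scaling. It became 27 (5266) with quantile normalization, 29 (5989) with the authors' table and 33 (7403) without the 5 arrays. With normexp correction the members' median difference was 0.60, beside 1.29 in the main fit. The count was 17 of 31 tested members (3472 of 13203 genes) when every array had to be well above background, and 22 to 29 when 1 array was left out. From day 1 to day 4, 2 members (280 genes, against 9) were called without the 6 arrays. Over all ages 16 of 46 same-numbered pairs correlated above 0.1. With the replicate block 27 members differed between any ages and 13, 7 and 24 were called in the later steps and over the whole interval. The 6 calls it lost were Cxcl9 and Ccr3 from day 1 to day 42 (limma adjusted p = 0.0545 and 0.0658), Ccr7 and Ccr4 from day 7 to day 14 (0.0507 and 0.0562), and Cxcl10 and Ccl19 from day 14 to day 42 (0.0731 and 0.0677), and it changed no other of the 49. The causes of these differences were not tested. The detection limit bounds the dim members, and 1 brighter array can decide whether one is detected.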
